A study of Homo sapiens with 96 samples.

Results

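Translational efficiency was described in Bmal1-knockdown cells as the ratio of ribosome footprints to total RNA, gene by gene. The libraries used were the 24 knockdown footprint and the 24 knockdown total RNA libraries, 48 of the 96 in the series, joined into 24 pairs by circadian time (CT) and replicate number. They come from U2-OS cells, a human osteosarcoma line with luciferase under the Per2 promoter. A mix of 5 siRNAs against Bmal1 (gene symbol ARNTL), 120 pmol per plate, was given to cells plated at 560000 per dish. Dexamethasone at 0.1 µM, a synthetic glucocorticoid, then set the clock of all plates. Lysates were taken every 2 h from 24.5 h later, which gave 12 times with 2 replicates, after 3 min of cycloheximide at 100 µg/mL to stop elongation. Wild-type cells, used here only for comparison (48 libraries), had the same reporter, dexamethasone and collection, no siRNA, and 2250000 cells per plate. The labels name no control siRNA, no clone and no separate cultures, so p-values measure the spread between these libraries, which may be technical, and the siRNA cannot be told apart from transfection, plating density or series.

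An mRNA that many ribosomes read at once yields many protected fragments for each copy of the RNA, so footprints divided by total RNA give a relative measure of how heavily a transcript is loaded. Counts were not scaled by length here, and lengths of coding and untranslated parts were not available. The part of length in differences between genes and classes was therefore not tested. Cells set this loading at initiation: upstream open reading frames, a pyrimidine tract at the very 5′ end (the TOP motif of ribosomal protein mRNAs, read by LARP1 under mTOR control), or an iron-responsive hairpin can each hold ribosomes back. RNAs with no coding function carry few footprints.

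The TOP tract is printed first because the lowest large gene class in these cells, the cytosolic ribosomal proteins, is known for it. Each sequence below runs 5′ to 3′ over 23 bases, 5 before and 18 from the RefSeq start (GRCh38.p14), and the capitals mark a C followed by at least 4 C or T. The search took the first such run beginning within 5 bases on either side of the start, on the sense strand only. The 8 genes were picked after their values were seen, to show alike tracts at the low and the high end.
RPS3A: ttccgCCCTTTTggctctctgac
EEF1A1: acgttCTTTTTCgcaacgggttt
EIF4B: cgggtCTTTTgcgttctctttcc
NPM1: gcgtCCTTTCCCTggtgtgattc
EEF2: gcgttCTCTTCCgccgtcgtcgc
GNB2L1: tCTCTCTCTCTTTCactgcaagg
RPLP2: gCCTTCCTTTTCCTCCCTgtcgc
RPL28: CCTTCCTCTTTCCgtctcaggtc
These windows lie at chr4:151099623-151099645 (plus strand), chr6:73521015-73521037 (minus), chr12:53006451-53006473 (plus), chr5:171387844-171387866 (plus), chr19:3985446-3985468 (minus), chr5:181243889-181243911 (minus; RACK1 in RefSeq), chr11:809962-809984 (plus) and chr19:55385927-55385949 (plus). On the log2 scale, footprints over total RNA stood at -7.53 for RPS3A, a small-subunit protein, -5.01 for the elongation factor EEF1A1, -4.58 for the initiation factor EIF4B and -2.90 for nucleophosmin, NPM1. It was 0.047 for EEF2, the translocation factor, 0.0036 for the ribosomal scaffold GNB2L1, 0.075 for the stalk protein RPLP2 and 0.24 for RPL28. The tract therefore stood at the start of genes over a wide range of ratios. These genes also differ in pseudogenes named after them in RefSeq. RPS3A, EEF1A1, EIF4B and NPM1 have 54, 50, 9 and 50. EEF2, GNB2L1, RPLP2 and RPL28 have 0, 3, 5 and 6. The part of such copies in this range was not tested. A tract was found in 49 of 61 cytosolic ribosomal protein genes with a sequence, and in 23.1% of the 10098 tested genes with one. The median log2 ratio of all tested genes was -0.19 with the tract and -0.12 without it, and of genes with 1 or more named pseudogenes -0.68 and -0.35 (446 and 1232 genes). Among genes without a named pseudogene it was -0.092 with the tract and -0.087 without it (1885 and 6535 genes). That set holds no tested cytosolic ribosomal protein gene, as each of those has at least 4 named copies. The ribosomal protein genes had a median of -2.12 with the tract and -2.87 without it (49 and 12 genes). A list of other mRNAs known for the tract had -0.25 and -2.66 (11 and 2 genes).

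ARNTL itself was lower in all 48 knockdown libraries than in any wild-type library of its assay. In total RNA it lay at 3.39, 4.70 and 6.63 CPM (reads per 1e+06 reads of the library; lowest, median and highest) in knockdown and at 14.4, 32.8 and 48.2 CPM in wild-type. In these bulk lysates, fewer cells with the RNA and less RNA per cell cannot be told apart. Footprint libraries held 2.60 to 4.32 M reads (M, 1e+06 reads) and 22 of the total RNA libraries 13.6 to 20.1 M. The replicate 2 total RNA libraries of CT 14 and CT 18 held 2.66 and 2.56 M reads, and their make-up differed too, so the ratio without them is given beside each named ratio that they move by more than 0.1. Of 12 mesenchymal and osteoblast markers, 8 exceeded 1 CPM of total RNA (summed 3604 to 4386 CPM per library), while BGLAP (0.00715 CPM), IBSP (0.0505) and SP7 (0.0104), which define mature osteoblasts, were near 0. Epithelial markers summed to 89.4 to 133 CPM (4 of 6 above 1 CPM) and blood markers to 9.92 to 17.6 CPM, nearly all of it CD68 (CD3E and HBB at or near 0).

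The ratio differed widely between genes and little between pairs. Over the 12522 tested genes the median log2 ratio was -0.15, and 90% of genes lay between -2.48 and 1.44, a 15.1-fold span. The SD of a gene over the 24 pairs had a median of 0.21, and the sign was the same in every pair for 8181 genes (65.3%). A ratio of 1 (log2 of 0) means an equal share of the 2 kinds of library, not an absolute number of ribosomes, and genes are compared here only by this ratio. Genes were called where limma placed the ratio more than 2-fold above or below 1 at an adjusted p (Benjamini-Hochberg) under 0.05: 1086 were called above (8.67% of tested genes) and 2568 below (20.5%). Centred on the median gene the same test called 1444 above and 2189 below, so the split between the directions depends on where 0 is set. Replicates 1 and 2 correlated across genes at a Pearson r of 0.993 over the 12522 genes, a description of points that share libraries.

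**Figure D1:**
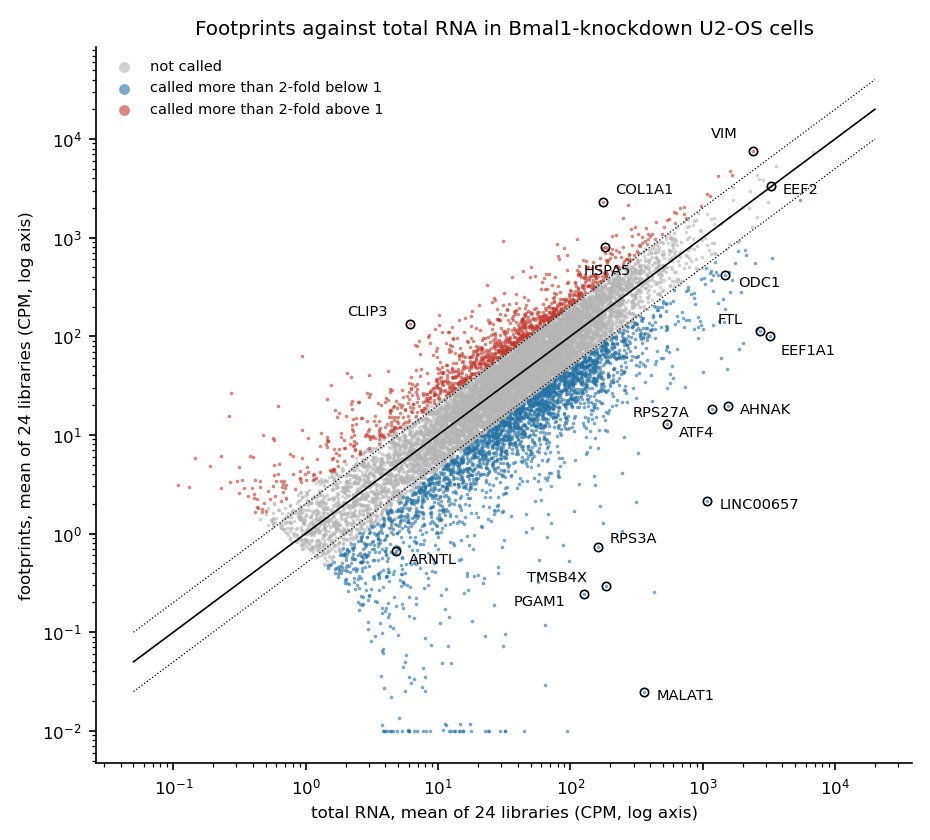
Mean footprint level against mean total RNA level of each tested gene in knockdown cells (both in CPM, log axes; each point 1 gene, mean of 24 libraries; means under 0.01 CPM of footprints are drawn at 0.01). The solid line marks a ratio of 1 and the dotted lines a ratio 2-fold above and below it. CLIP3 and COL1A1 lie far above the line and MALAT1, TMSB4X, RPS3A and AHNAK far below it, while EEF2 lies on it.

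Genes at either end were ranked among those past the threshold, with 1 sign in all 24 pairs and a mean level of 3 or more on the log2 CPM scale, so genes of lower level can lie farther out. At the high end of that ranking stood an RNA-binding protein, a vesicle trafficking pair and type I collagen. TAF15, an RNA-binding protein of transcription, had 258, 330.2 and 398 CPM of footprints (lowest, median and highest of 24) and 18.1, 21.2 and 51.0 CPM of total RNA. The ranges did not overlap, and every footprint library was above every total RNA library, as for 18.7% of tested genes. Its log2 ratio was 3.83 ± 0.076 (SE of the limma contrast over the 48 libraries, fitted without a term for pairs, adjusted p = 1.45e-22). It was 3.93 without the shallow libraries, in which TAF15 RNA averaged 46.8 CPM against 21.5 CPM in the other 22.

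CLIP3, a microtubule-linked protein of endosomes and the trans-Golgi, had 104, 133 and 177 CPM of footprints and 2.16, 3.39 and 39.2 CPM of RNA, a log2 ratio of 4.90 ± 0.19 (limma, adjusted p = 3.84e-16). It was 5.16 without the shallow libraries: its 2 shallow pairs gave 2.07 and 1.97, and the other 22 at least 4.50. The recycling GTPase RAB11B (4.13 ± 0.12) and EHD2, an ATPase of caveolae (3.76 ± 0.089), showed the same split: 4.28 and 3.89 without the shallow libraries. COL1A1, the main chain of type I collagen, had 1767, 2199 and 3017 CPM of footprints and 129, 155 and 375 CPM of RNA. Its ratio was 3.72 ± 0.062 (limma, adjusted p = 5.05e-24), and the assays did not overlap; its shallow pairs gave 2.87 and 2.82. HMGN5, a nucleosome-binding protein, reached 4.27 ± 0.096 (4.39 without the shallow libraries) from 2.04 CPM of RNA. A further 3 of the 10 highest genes in this ranking are uncertain, because reads can be shared with a near-identical or overlapping gene: the read-through gene NME1-NME2 (5.77; 5.66 without the shallow libraries) and the pseudogenes SKP1P2 (4.01) and HLA-H (3.74; 3.60).

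The shallow libraries moved with this end of the ranking. Genes called above 2-fold had total RNA 0.31 higher (median log2) in the 2 shallow libraries than in the other 22, and 79.5% of them were higher there. Genes called below differed by -0.059 and uncalled genes by -0.044. The same difference correlated across 12522 genes with the ratio of wild-type cells, which share no library with it, at a Pearson r of 0.271. Leaving both out left the median ratio of the genes called above at 1.55 against 1.53; the part of these libraries in single genes beyond that was not tested.

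**Figure D2:**
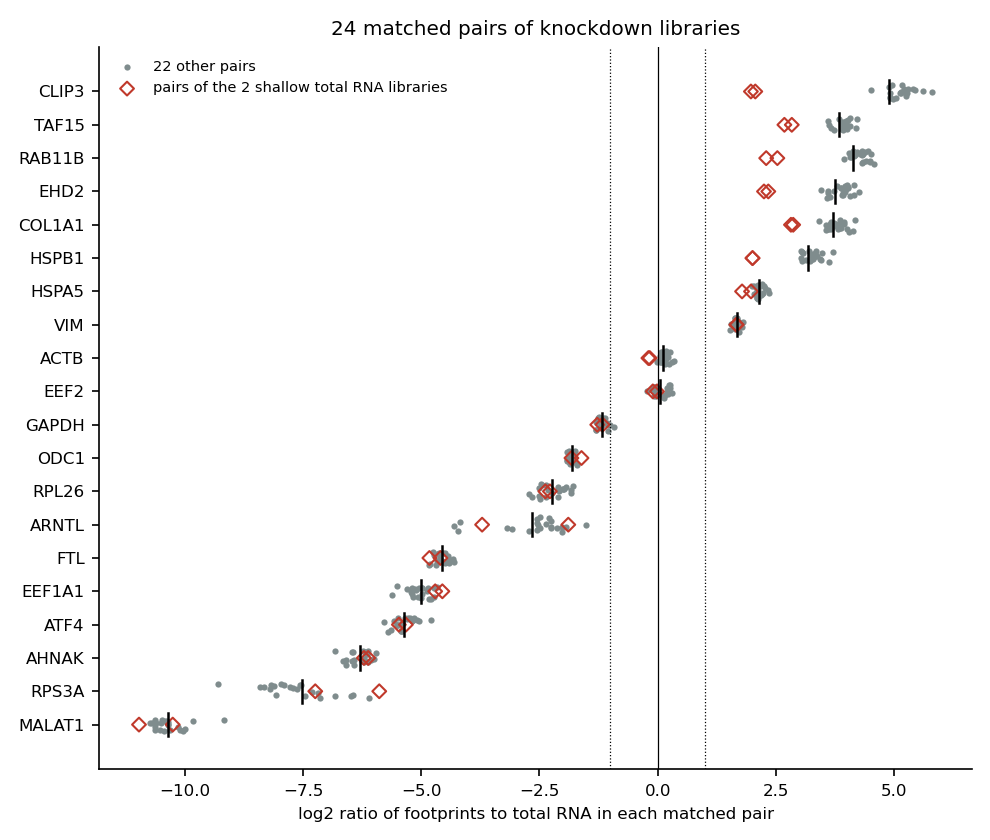
Log2 ratio of footprints to total RNA in each of the 24 matched knockdown pairs for 20 genes (grey points, 22 pairs; red diamonds, the pairs of the 2 shallow total RNA libraries; black bars, the mean of 24; dotted lines, 2-fold). CLIP3, RAB11B, EHD2 and HSPB1 fall to lower ratios in the shallow pairs, while VIM, ODC1, FTL and ATF4 do not.

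At the other end stood noncoding RNAs and coding genes both with and without copies in the genome. MALAT1, a nuclear long noncoding RNA, had 226, 345 and 632 CPM of total RNA and 2 footprint reads in all 24 libraries. Pooled, that is a log2 ratio of -13.79 (95% Poisson interval -16.84 to -11.94, counting error only). LINC00657, a cytoplasmic noncoding RNA also known as NORAD, had 0.373, 2.11 and 3.88 CPM of footprints against 956, 1070.3 and 1196 CPM of RNA, a ratio of -8.88 ± 0.093 (limma, adjusted p = 7.44e-31). The small nucleolar RNA SNORA33, encoded inside another gene, was lower than LINC00657, at -9.92. RefSeq types 351 genes in the files as lncRNA, of which 67 passed the filter on the mean level of both assays. Footprints averaged under 1 CPM in 30 of them, which passed mainly through their total RNA, so the filter itself favours low ratios; no count of calls is drawn from the class. SNHG3, a snoRNA host, had 30.4, 35.9 and 53.3 CPM of footprints and 129, 152 and 167 CPM of RNA, a less extreme ratio of -2.0 ± 0.039. Of 135 antisense and LINC transcripts 38 passed, 18 of them with footprints under 1 CPM, and the highest was ASH1L-AS1 at 0.85 ± 0.17; without stated strand counting an antisense gene is uncertain.

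Among coding genes of that ranking (mean level of 3 or more) the lowest ratios belonged to TMSB4X, the actin-binding thymosin (-8.60 ± 0.11; -8.71 without the shallow libraries), SRP9 of the signal recognition particle (-7.66 ± 0.14), RPS3A (-7.53 ± 0.14), PRKRIR (-7.15 ± 0.13) and the ubiquitin-like NEDD8 (-6.36 ± 0.075). RPS3A had 0, 0.563 and 2.03 CPM of footprints and 109, 165 and 175 CPM of RNA, with no overlap (limma, adjusted p = 2.9e-26). TMSB4X had only 25 footprint reads in all, so its value depends on the 0.25 CPM added before taking logs. All 5 have named pseudogenes in RefSeq, from 1 for SRP9 to 54 for RPS3A, and their values are uncertain. AHNAK, a giant scaffold protein without a named pseudogene, had 14, 19.6 and 24.9 CPM of footprints and 1371, 1511 and 1927 CPM of RNA. Its ratio of -6.29 ± 0.042 (limma, adjusted p = 6.92e-41) rested on 1628 footprint reads and stayed between -6.82 and -5.96 in all pairs. EDARADD, an adaptor of ectodysplasin signalling, was also without one (-6.06 ± 0.18). Other shared or repeated sequence was not checked, so the lack of a named copy does not make either value certain. RPS27A (-5.99 ± 0.061), the GTPase RHOQ (-5.88 ± 0.091) and the iron-sulfur protein ISCA1 (-5.77 ± 0.20) complete the 10 lowest coding genes of the ranking, with 20, 3 and 7 named copies. C19orf48 (-7.01), a transcribed pseudogene in RefSeq, and LOC401397 (-6.62) are among its 10 lowest genes of any type. Below the level of 3, coding genes such as PGAM1 reached ratios as low (-8.26 ± 0.16).

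Cytosolic ribosomal proteins, the subunits of the translating ribosome, were the lowest of the large lists. Of 79 genes 76 were tested; 59 were called below 2-fold (77.6%, against 20.5% of all genes) and none above. Footprints averaged under 1 CPM in 8 of the tested genes, which passed the filter mainly through total RNA, so that it favoured low ratios for them. Their median was -2.20 against -0.15 for all tested genes, and large and small subunit genes were alike at -2.31 and -2.17. Relative to all genes, the list's median ran from -2.28 to -1.66 over the 24 pairs. The middle gene, RPL26, had 93.8, 130.4 and 174 CPM of footprints and 575, 625 and 661 CPM of RNA, a ratio of -2.23 ± 0.039 (limma, adjusted p = 2.79e-24). Footprints were below RNA in every library, as for 28.4% of tested genes. RPL28, the highest, had 212, 246 and 290.3 CPM against 185, 205 and 315 CPM. Its assays overlapped, and its ratio of 0.24 ± 0.037 was not called. RPL41, whose protein is a short basic peptide, had 0.244, 1.11 and 2.71 CPM against 11.9, 15.5 and 18.8 CPM and a ratio of -3.56 ± 0.095.

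Other mRNAs known for a TOP tract split into a low and a middle set: 9 of 19 were called below (20.5% of all genes) and none above, with a median of -0.93. EEF1A1 had 72.8, 99.9 and 122 CPM of footprints against 2618, 3260.1 and 3607 CPM of RNA, a ratio of -5.01 ± 0.048 (limma, adjusted p = 1.75e-31). EEF2 had 2849, 3335 and 3920.2 CPM against 2888, 3233 and 3549 CPM. Its assays overlapped, at a ratio of 0.047 ± 0.021. The poly(A)-binding protein PABPC1 stood in the middle at -0.93 ± 0.09 (-0.81 without the shallow libraries), with 1125 CPM of RNA in the shallow libraries against 409.7 CPM in the other 22. EIF3H was highest at 0.79 ± 0.018. EEF1A1 and PABPC1 have 50 and 13 named pseudogenes, EEF2 and EIF3H none.

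The number of named pseudogenes moved with the ratio across the whole table. Genes with 0 had a median of -0.092 and 18.2% called below (10392 genes). With 5 to 9 copies the values were -1.0 and 45.1%, and with 10 or more -1.66 and 67.7% (133 genes). Without the ribosomal proteins the last class was still at -1.17, with 53.8% below (78 genes). Total RNA was also higher with more copies. Over all tested genes its median was 30.7 CPM with 0 copies, 135 CPM with 5 to 9 and 320 CPM with 10 or more. Every tested ribosomal protein gene had 4 to 137 copies, and copies and ratio correlated at Spearman's rho -0.591 over the 76 genes, which share libraries and depth. In the other TOP list the 2 members without a copy had a median of 0.42 and neither was called. The part of the copies, or of the RNA level, in these ratios was not tested, and every value of a ribosomal protein gene is uncertain in that sense.

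**Figure D3:**
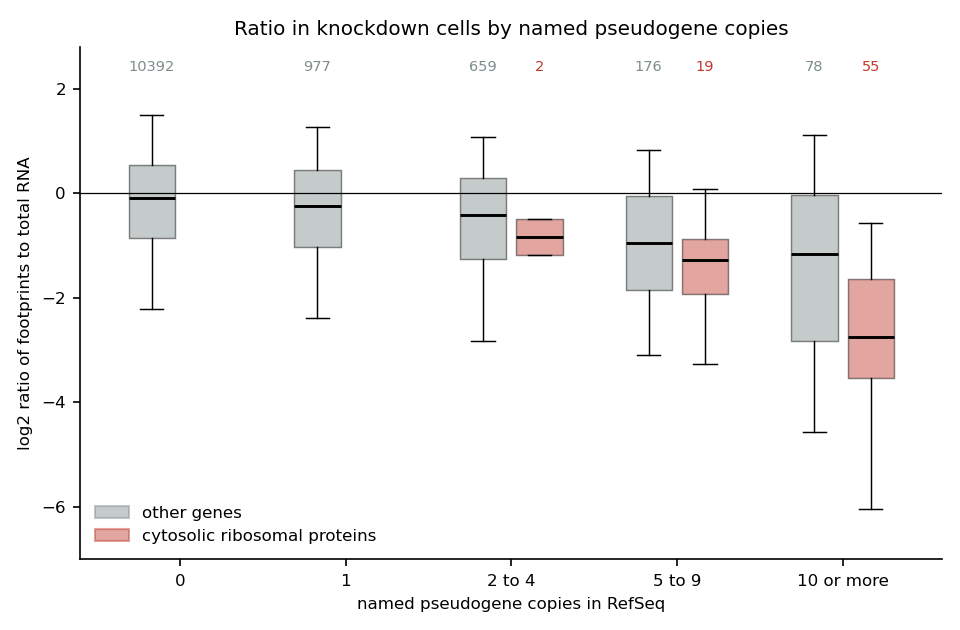
Log2 ratio of footprints to total RNA in knockdown cells against the number of pseudogenes named after a gene in RefSeq, for cytosolic ribosomal proteins (red) and all other tested genes (grey). Boxes show the quartiles and median, whiskers the 5th and 95th percentiles, and numbers above the boxes the genes; medians fall from -0.092 with 0 copies to -1.17 (other genes) and -2.75 (ribosomal proteins) with 10 or more.

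Stress-response mRNAs with inhibitory upstream open reading frames carried few footprints. Of 15, 9 were called below and none above (20.5% and 8.67% of all genes), with a median of -1.28; the 13 without a named pseudogene had -1.14. ATF4, the effector of the integrated stress response, had 9.80, 12.9 and 21.3 CPM of footprints and 465, 532 and 614 CPM of RNA, with no overlap. Its ratio was -5.37 ± 0.045 (limma, adjusted p = 1.25e-40), with 4 named copies. SLC35A4, whose upstream frame itself encodes a protein, was at -3.58, and the stress factor DDIT3 and the phosphatase subunit PPP1R15A, which reverses the stress response, were at -2.51 and -1.74 (3 genes chosen after their values were seen). TP53INP1, the middle gene, was at -1.28 ± 0.043 (limma, adjusted p = 2.77e-07). CEBPB, whose start-site choice depends on an upstream frame, was the highest at 0.77 ± 0.047 and was not called.

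Polyamine genes, many of them under translational feedback from polyamines, were spread: 7 of 13 were below and 1 above (20.5% and 8.67% of all genes), with a median of -1.28 and an upper quartile of 0.74. Of the 8 without a named pseudogene, 4 were below. ODC1, the first enzyme of the pathway, had 321, 409.6 and 511 CPM of footprints and 1168, 1452 and 1851 CPM of RNA. Its ratio was -1.82 ± 0.023 (limma, adjusted p = 6.91e-30) and the assays did not overlap. AMD1, which supplies the aminopropyl group and is controlled by an upstream frame, was at -2.53 ± 0.039, and the catabolic enzyme SAT1 at -2.59 ± 0.15 from 112 footprint reads. OAZ1, the antizyme made by a polyamine-driven frameshift, was at -1.28 ± 0.026. SRM, spermidine synthase, was the one gene called above, at 1.27 ± 0.063 (limma, adjusted p = 0.000429), with shallow pairs of 0.42 and 0.28. It was not called without replicate 1, in a fit that, like every fit without a replicate here, also pooled the times.

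In iron metabolism the storage proteins were far below the rest. FTL had 95, 113 and 143 CPM of footprints and 2297, 2689.9 and 3057 CPM of RNA, a ratio of -4.56 ± 0.028 (limma, adjusted p = 2.21e-47). FTH1, the other ferritin chain, had 32.2, 37.7 and 46.3 CPM and 486, 571 and 969.5 CPM, a ratio of -3.95 ± 0.048. Both carry an iron-responsive element in the 5′ leader, and both have many named pseudogenes (20 and 27). The iron exporter SLC40A1, with the same element and no named copy, was at -2.70 ± 0.056 (limma, adjusted p = 1.23e-26), from 8.48, 12.1 and 17.6 CPM of footprints and 66.5, 83.2 and 96.4 CPM of RNA. FBXL5, the ligase subunit that senses iron, was at -1.30 ± 0.037 and also called below. EPAS1, a hypoxia-inducible factor with a 5′ element, was higher and not called (0.67 ± 0.063). TFRC, the transferrin receptor, whose elements lie at the 3′ end, was at 0.063 ± 0.031 with overlapping assays, NCOA4, which delivers ferritin for breakdown, at -0.79 ± 0.02, SLC11A2 at -0.52 ± 0.037 and HMOX1, which frees iron from haem, at 0.71 ± 0.033. The RNA-binding iron regulators ACO1 and IREB2 were at 1.08 ± 0.018 and 0.68 ± 0.03; ACO1 was the one gene of 12 called above (8.67% of all genes), and 4 were called below (20.5%).

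Selenoproteins, which read a UGA codon as selenocysteine, had 5 of 20 genes below and 1 above, shares of 25% and 5.00% that lie near the 20.5% and 8.67% of all genes, with a median of -0.44. Of the 14 without a named pseudogene, 2 were below. SEPW1, the lowest, had 26.1, 33.8 and 43.5 CPM of footprints against 321, 366 and 402 CPM of RNA (-3.42 ± 0.035; limma, adjusted p = 2.32e-39). GPX4, which protects membranes from lipid peroxides, was at -0.53 ± 0.027, and VIMP, a protein of ER degradation, at 1.14 ± 0.044, which was not called without replicate 1. In the mTOR pathway 4 of 16 genes were below and 1 above, again near the shares of all genes. The S6 kinase RPS6KB2 was lowest at -2.36 ± 0.053, the TOP-binding protein LARP1 was at 0.33 ± 0.037 (0.38 without the shallow libraries), and PDCD4, an inhibitor of the helicase eIF4A, was highest at 1.14 ± 0.044 (not called without replicate 1).

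**Figure D4:**
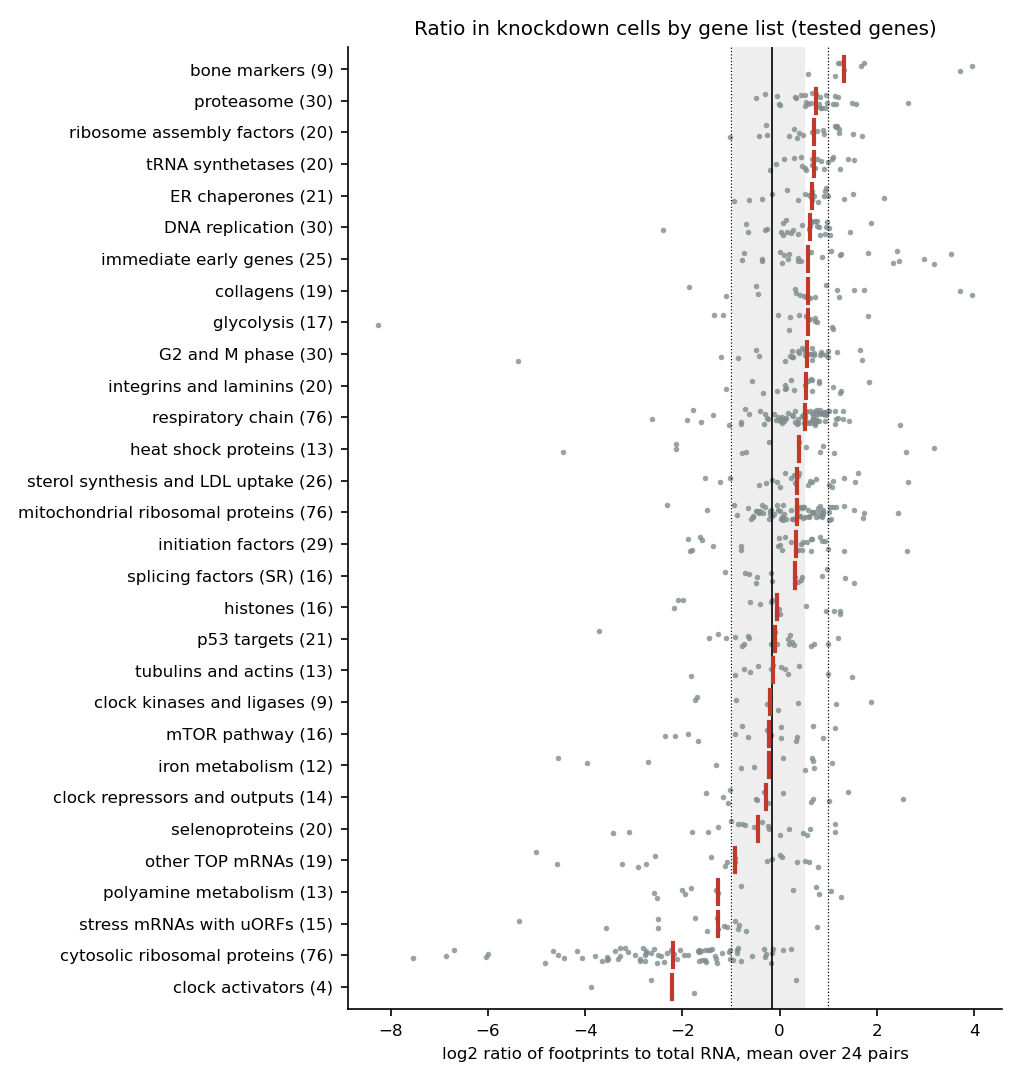
Log2 ratio of footprints to total RNA for the tested members of 30 gene lists in knockdown cells (grey points, 1 gene each, mean of 24 pairs; red bars, list medians; numbers in brackets, genes). The black line and grey band give the median and quartiles of all tested genes and the dotted lines 2-fold; cytosolic ribosomal proteins, stress mRNAs with upstream frames (uORFs) and polyamine genes lie to the left, bone markers, proteasome and ribosome assembly genes to the right.

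Charging enzymes and assembly factors of protein synthesis had medians above that of all genes (-0.15), while initiation factors went both ways. The 20 cytosolic aminoacyl-tRNA synthetases, which charge tRNAs, had a median of 0.70, with 5 called above and none below (8.67% and 20.5% of all genes). VARS led with 499.9, 548 and 617 CPM of footprints and 172, 193 and 205 CPM of RNA, a ratio of 1.53 ± 0.022 (limma, adjusted p = 3.46e-24), and KARS was last at -0.19 ± 0.02. Ribosome assembly factors had a median of 0.71 with 7 of 20 above and none below; nucleolin, NCL, was at 1.69 ± 0.037 and the snoRNP protein NHP2 at -1.01 ± 0.025. Of 29 initiation factors 2 were above and 6 below, shares near those of all genes. Of the 16 without a named pseudogene, 2 were above and 0 below, with a median of 0.60. The list did not hold EIF4B (-4.58). EIF5B, which joins the subunits, reached 2.62 ± 0.041 (limma, adjusted p = 1.41e-27), with 329, 431 and 508 CPM of footprints and 53.5, 67.6 and 98.3 CPM of RNA. EIF2S2, the beta subunit of eIF2, was at -1.88 ± 0.028, and EIF3B at 0.33 ± 0.02. Mitochondrial ribosomal proteins, in contrast to the cytosolic ones, had a median of 0.36, with 7 of 76 above and 2 below, from MRPL12 (-2.31 ± 0.066) to MRPS24 (2.43 ± 0.097; 2.32 without the shallow libraries).

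Protein complexes of breakdown and energy followed. Proteasome subunits had a median of 0.75, with 7 of 30 called above and none below (8.67% and 20.5% of all genes). PSMB2, a subunit of the catalytic ring, had 343, 389.7 and 445 CPM of footprints and 49.7, 61.7 and 87.8 CPM of RNA, a ratio of 2.63 ± 0.031 (limma, adjusted p = 1.86e-35). PSMA2 was last at -0.48 ± 0.035. The respiratory chain had a median of 0.52, with 8 of 76 above and 5 below, from SDHD (-2.62 ± 0.051; 7 named copies) to the ATP synthase subunit ATP5D (2.47 ± 0.039). Glycolytic enzymes had a median of 0.58. PKM was in the middle (0.58 ± 0.015), GPI highest (1.81 ± 0.024), and PGAM1 lowest at -8.26 ± 0.16 with 20 footprint reads and 13 named copies. GAPDH, with 65 copies, was at -1.17 ± 0.021 (limma, adjusted p = 1.26e-09), and was not called on ratios centred on the median gene. Sterol genes had 6 of 26 above and 2 below; FASN, fatty acid synthase, had 1336, 1538 and 2001 CPM of footprints and 215, 249.8 and 299.6 CPM of RNA, a ratio of 2.65 ± 0.03.

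Collagens, the fibres and sheets of the extracellular matrix, followed. Of 19 genes 6 were above and 1 below (8.67% and 20.5% of all genes), with a median of 0.58. COL4A1 was in the middle at 0.58 ± 0.03 and COL7A1 lowest at -1.86 ± 0.16 (-1.74 without the shallow libraries). COL1A2 was highest at 3.96 ± 0.12, but its RNA was only 0.145 CPM on average, so it passed the filter through its footprints and had to lie high. Of 12 mesenchymal and bone markers 9 were tested and 7, COL1A2 among them, were above (8.67% of all genes). The intermediate filament VIM had 7112, 7557 and 9214 CPM of footprints and 2196, 2375 and 2681 CPM of RNA, a ratio of 1.67 ± 0.02 (limma, adjusted p = 1.12e-28). SPARC, a collagen-binding matrix protein, was at 1.21 ± 0.017, COL6A1 at 1.73 ± 0.033, N-cadherin CDH2 at 1.25 ± 0.028, osteopontin SPP1 at 1.33 ± 0.055, RUNX2 at 1.13 ± 0.088 and ALPL at 0.58 ± 0.056; the last pair was not called, except RUNX2 without the shallow libraries or replicate 2, and SPP1 was not called without replicate 1. ER chaperones had a median of 0.67, with 3 of 21 above and none below (8.67% and 20.5% of all genes). HSPA5, the main ER chaperone, had 624, 831 and 989 CPM of footprints and 138, 179 and 262 CPM of RNA (2.14 ± 0.029; limma, adjusted p = 3.49e-30), and XBP1, which drives their transcription, was lowest at -0.95 ± 0.031. Integrins and laminins ran from ITGB8 (-1.11 ± 0.062) through ITGB1 (0.51 ± 0.021) to LAMA5 (1.85 ± 0.05), with 3 of 20 above and none below.

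Immediate early genes, whose mRNAs are short-lived, had 8 of 25 above and none below (8.67% and 20.5% of all genes), with a median of 0.59. EGR1, a growth-induced transcription factor, had 72.7, 166 and 485 CPM of footprints and 5.42, 11.3 and 110.2 CPM of RNA, the highest RNA values being the shallow libraries (79.1 CPM on average against 12.7). Its ratio was 3.52 ± 0.17 with them and 3.67 without. JUN was in the middle at 0.59 ± 0.03, with non-overlapping assays. Heat shock proteins spread from HSPE1 (-4.46 ± 0.13; 28 named copies) to HSPB1 (3.17 ± 0.083; 3.28 without the shallow libraries), with HSP90AB1 at 0.40 ± 0.015. Splicing factors of the SR family, of which 2 of 16 were above and 1 below, ran from SRSF3 (-1.13 ± 0.019; not called without replicate 1 or when centred) to TRA2A (1.53 ± 0.034).

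Genes of the cell cycle were near each other. DNA replication genes had a median of 0.62 and G2 and M phase genes 0.57, with 2 and 3 of 30 above and 1 and 2 below (8.67% and 20.5% of all genes). TYMS, thymidylate synthase, was at 1.87 ± 0.023, with 2 named copies. The proliferation antigen MKI67 was at 1.7 ± 0.062 and the kinase subunit CKS1B at -5.39 ± 0.14 from 29 footprint reads. Replication-dependent histones, whose mRNAs end in a stem-loop in place of a poly(A) tail, had 3 of 16 above and 3 below. HIST1H1E had 1099, 1623 and 2468 CPM of footprints against 443, 658 and 1085 CPM of RNA (1.25 ± 0.027; not called without replicate 1 or without replicate 2), and HIST2H2BE 75.2, 112 and 168 against 298, 505 and 826 (-2.18 ± 0.038); histone genes are near-identical, so their values are uncertain. Tubulins and actins ran from TUBA1B (-1.82 ± 0.027) to TUBB4B (1.48 ± 0.03), with ACTB at 0.11 ± 0.031. Among p53 targets PHLDA3, an inhibitor of Akt, was lowest at -3.72 ± 0.063 (limma, adjusted p = 2.25e-27), and 3 of 21 were below (14.3%, under the 20.5% of all genes) and none above.

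The large family of zinc finger genes was low: 192 of 432 below (44.4% against 20.5% of all genes), 12 above, median -1.04. In 25 of them footprints averaged under 1 CPM, for which the filter favoured low ratios in the same way. Of the tested genes, 412 had no named pseudogene and a median of -1.04. ZNF271 was lowest at -6.70 ± 0.13 from 32 footprint reads and ZNF703 highest at 4.43 ± 0.14 (4.63 without the shallow libraries) from 1.55 CPM of RNA. Solute carriers, 217 membrane transporters, had a median of -0.25, with 15 above and 39 below, shares of 6.91% and 18% near the 8.67% and 20.5% of all genes; SLC35E2 was the lowest (-3.84 ± 0.18).

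Of the 3 core clock activators other than the siRNA target, ARNTL2 and CLOCK were called below (20.5% of all genes) and NPAS2 was not called. ARNTL2, a paralogue of Bmal1, had 7.53, 11.0 and 16 CPM of footprints and 128, 159 and 200.2 CPM of RNA, a ratio of -3.87 ± 0.056 (limma, adjusted p = 1.75e-32). CLOCK, the partner of Bmal1, had 42.3, 49.0 and 61.1 CPM and 155, 166 and 190.1 CPM, a ratio of -1.77 ± 0.036 (limma, adjusted p = 5.77e-22). In both the assays did not overlap. NPAS2, which can replace CLOCK, was at 0.33 ± 0.088 with overlapping assays. ARNTL was at -2.65 ± 0.16 (limma, adjusted p = 7.95e-12) from 54 footprint reads. Repressors and outputs had 2 of 14 above and 2 below. RORA was lowest (-1.52 ± 0.074) and CRY2 in the middle (-0.31 ± 0.03). NR1D1, a nuclear receptor that overlaps THRA on the other strand and is therefore uncertain, was highest at 2.54 ± 0.14 from 0.935 CPM of RNA (2.73 without the shallow libraries). Among the kinases and ligases that act on clock proteins, the 2 kinases GSK3A (1.87 ± 0.066; 1.97 without the shallow libraries) and CSNK1D (1.16 ± 0.033; not without replicate 1) were above, the ligase subunit FBXW11 (-1.73 ± 0.034) and the kinase CSNK2A1 (-1.69 ± 0.034) below. CSNK1E (-0.27 ± 0.033), GSK3B (-0.20 ± 0.028), PRKAA1 (-0.038 ± 0.025) and BTRC (0.38 ± 0.036) were not called.

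All class medians in this paragraph are relative to the median of all tested genes. They differed by 0.087 to 0.58 between their extreme times. Relative to all genes, the median of the ribosomal proteins was lowest at CT 22 (-2.14) and highest at CT 20 (-1.76), neighbouring samplings, and replicates of a time differed by 0.19 on average. The respiratory chain differed by 0.093 between its extreme times and the ER chaperones by 0.087, against 0.033 and 0.056 between replicates. G2 and M phase genes ranged over 0.30, from 0.49 at CT 22 to 0.79 at CT 2, against 0.055 between replicates. Immediate early genes ranged over 0.34 (lowest at CT 6, highest at CT 0) against 0.10, and heat shock proteins over 0.25 against 0.082. The widest range was that of the tested antisense and LINC transcripts, 0.58 against 0.18. Relative to all genes, the median of stress mRNAs with upstream frames stayed between -1.30 and -0.98 in all 24 pairs and that of bone markers between 1.39 and 1.66. No rhythm was tested here.

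The order of genes was nearly that of wild-type cells. Across 12522 genes the ratios of both treatments correlated at a Pearson r of 0.983, with a median absolute difference of 0.12. Of the 1086 genes called above in knockdown, 1024 had a log2 ratio over 1 in wild-type too, and of the 2568 called below, 2458 one under -1. The difference itself was tested with limma's interaction term over all 96 libraries: the ratio was higher in knockdown for 1517 genes (12.1%) and lower for 2082 (16.7%) of 12501. With the authors' scaling in place of TMM these counts were 3782 and 976, so the share of rises went from 42.2% to 79.5%, and a direction of a small difference is tied to the scaling. Without replicate 1 they were 651 and 922, and without replicate 2 1010 and 1243. Those fits also pooled the times, so their counts reflect a changed model as well as fewer libraries.

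ARNTL, the siRNA target, had a log2 ratio of -0.82 in wild-type and -2.65 in knockdown, which is a difference of -1.84 ± 0.18 (limma, adjusted p = 3.13e-12). The ratio of ATF4 differed by -0.59 ± 0.076 (limma, adjusted p = 1.25e-08) and that of OAZ1 by -0.51 ± 0.035 (limma, adjusted p = 9.81e-19). EIF5B was higher (2.62 against 2.06; limma, adjusted p = 3.67e-09) and so was NCL (1.69 against 1.38; limma, adjusted p = 1.74e-05). Of the cytosolic ribosomal proteins 35 of 76 were lower in knockdown and 5 higher (16.7% and 12.1% of all genes), with medians of -2.20 and -1.94 in knockdown and wild-type. The respiratory chain had 37 lower and 4 higher of 76, and mitochondrial ribosomal proteins 30 and 3 of 76, against the same 16.7% and 12.1%. Histones had 11 lower and 0 higher of 16, with HIST2H2BE at -2.18 against -1.49 (limma, adjusted p = 3.76e-11). Tubulins and actins had 8 and 0 of 13, among them TUBA1B (-1.82 against -1.53). Collagens had 7 higher and 2 lower of 19, and p53 targets 9 and 2 of 21. With the authors' scaling the median difference of all genes was 0.089 in place of -0.0090, with 976 genes lower and 3782 higher of 12504, and the lead of lower over higher genes shrank in the respiratory chain (14 lower and 12 higher) and reversed in the mitochondrial ribosomal proteins (12 lower and 16 higher). Under it the cytosolic ribosomal proteins still had 26 lower and 10 higher, histones 11 lower and 0 higher and tubulins and actins 6 lower and 2 higher, collagens 12 higher and 2 lower and p53 targets 13 higher and 0 lower.

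**Figure D5:**
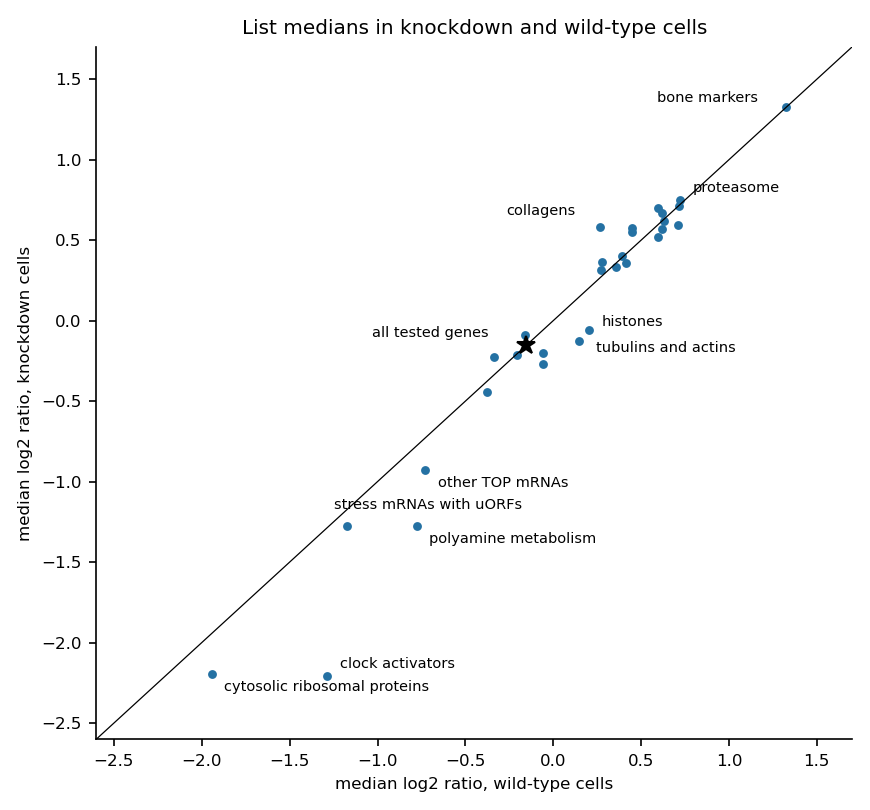
Median log2 ratio of footprints to total RNA of 30 gene lists in knockdown cells (vertical) and wild-type cells (horizontal), each the median over tested genes of the mean over 24 pairs. The line marks equal values and the star the median of all tested genes. Clock activators (-2.21 against -1.29), polyamine genes (-1.28 against -0.78) and collagens (0.58 against 0.27) lie farther from the line than the proteasome (0.75 against 0.72). The clock activators are 4 genes, the siRNA target ARNTL among them. The median of the genes' own differences was -0.20 for the clock activators, -0.014 for the polyamine genes and 0.18 for the collagens.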

How the data were processed

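Footprints and total RNA of U2-OS cells were sequenced in 96 libraries, of which the 48 knockdown libraries are described and the 48 wild-type libraries serve for comparison. The deposited values are a normalised signal: the authors used STAR 2.3.0e for alignment, HTSeq 0.5.4p1 for counting and DESeq2 for scaling, with the build GRCh37 (hg19), per the submitters' processing notes. The annotation, the counting mode and the handling of reads with several matches are not given in the sources used here. All values were whole multiples of 1 step per library (100% within 0.001 read), so read counts were recovered by dividing by that step.

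For each assay, TMM factors from edgeR 4.0.16 turned counts into log2(CPM + 0.25), and a fold change on that scale understates the change of low genes. Genes with a mean of at least 0 over both assays were kept, 12522 of 19438. The contrast of footprints minus total RNA, averaged over 12 times, was fitted in limma 3.58.1 (trend, robust) and tested against 2-fold with treat. The difference from wild-type was the interaction term. On simulated knockdown counts (10832 genes), 100% of genes set at a log2 ratio of 2 and of 3 were called, and 0% of those at 0 and 0.5. The simulation left out genes of low total RNA and gave all genes 1 dispersion and all libraries 1 make-up. It set no ratio between 0.5 and 2. It therefore does not speak to genes near the floor, to the make-up of the shallow libraries or to ratios near the threshold. Symbols were matched to RefSeq (GRCh38.p14; 12358 of the tested genes) for gene types and pseudogenes named after their parent. The design had foreseen a protein table to pick coding genes, for which the RefSeq gene type was used.

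Genes named were the 10 highest, the 10 lowest and the 10 lowest coding genes past the threshold, given 1 sign in all 24 pairs and a mean level of 3 or more on the log2 CPM scale. To these came the lowest, middle and highest tested member of each list, every member of lists with up to 12, and a short set of translationally controlled genes. A few genes that this rule names are not reported here. Genes, lists and tests were chosen with earlier results of these data known. Alternatives covered scaling, tool, pseudocount, filter, threshold, libraries left out and pairing. Fits without a replicate used 1 mean per assay and treatment over all times, in place of 1 per time. Their calls therefore differ from the main ones in model as well as in libraries. As no molecular identifiers were used, intervals express counting error alone.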

Additional observations from a re-analysis of the deposited data

Results flagged for a closer look

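Of the genes named for a ratio at either end or as known cases of translational control, the following differed in their log2 ratio between knockdown and wild-type cells by limma's interaction test over all 96 libraries, which also differ by treatment series. The ratio was lower in knockdown for NME1-NME2 (-2.31), ARNTL (-1.84), RPL41 (-1.17), ISCA1 (-1.11), SRP9 (-0.87), SKP1P2 (-0.77), ATF4 (-0.59), OAZ1 (-0.51), EHD2 (-0.35), RAB11B (-0.34), ACTB (-0.30), GPX4 (-0.23) and AMD1 (-0.21). It was higher for MALAT1 (0.93), HMGN5 (0.79), RPS27A (0.69), TAF15 (0.37) and EEF2 (0.16). The MALAT1 value rests on 2 knockdown footprint reads, and those of RPS27A and EEF2 changed sign without replicate 1. With the 2 shallow libraries left out, the knockdown ratios of RAB11B and EHD2 were 4.28 and 3.89, nearer the wild-type 4.45 and 4.09. Those of HMGN5 and TAF15 were 4.39 and 3.93, farther from the wild-type 3.47 and 3.45. Over all tested genes 1517 were higher and 2082 lower in knockdown.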

How the results depend on the processing

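Counts of genes called above and below 2-fold in knockdown ranged from 906 to 1444 and from 1767 to 3043 over the alternatives, the test at 0 apart, which called 5048 and 6446. Leaving out a replicate, with the times pooled in the fit, gave 917 to 1001 above and 2310 to 2385 below. With a replicate block they were 1106 and 2591, and the difference from wild-type gave 1860 higher and 2432 lower. Samples of a number deviated together, with a correlation over 0.1, at 7 of 12 times (correlations of -0.03 to 0.56). Whether the numbers pair the libraries is therefore not settled. Differences from wild-type numbered 3782 higher and 976 lower with the deposited scaling; without 1 replicate they were 651 to 1010 higher and 922 to 1243 lower. Shared genes were 1517 of the 3782 and 976 of the 976. The cause was not tested. The median gene moved from -0.15 to 0 by centring and to -0.043 with filterByExpr. Relative to it, list medians changed sign for histones (-0.018), tubulins and actins (-0.085) and p53 targets (-0.045) with filterByExpr, p53 targets (-0.058) with a filter at a mean of 3 on that scale, and iron (0.52), tubulins and actins (-0.28) and the mTOR pathway (0.077) without genes that have a named pseudogene, an alternative chosen after seeing the data. Differences from wild-type changed sign for TMSB4X (0.40, pseudocount of 1 CPM), for EIF3H (0.0013), PRKAA1 (0.095) and SPARC (0.078) with the deposited scaling, and, without a replicate, for EIF3H (-0.20 to 0.0053), RPS27A (-0.17 to 1.56) and EEF2 (-0.056 to 0.38). Of the named ratios under alternatives, 2203 values stayed on the same side of the threshold in the same direction, 63 passed it anew (54 of them by the test at 0) and 11 no longer passed it; none changed sign. Depth limits genes with few footprint reads, such as MALAT1, TMSB4X, PGAM1 and CKS1B, whose ratios depend on the pseudocount.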
